A study of Mus musculus with 18 samples.

Results

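Neurons and microglia from the brains of knock-in mice were compared in 6 of the 18 small RNA libraries of the series, 3 libraries of each cell fraction. The mice were 10 months old, on a C57BL/6 background and homozygous for Atxn2-CAG100-KIN, an expanded CAG repeat inserted into the endogenous Atxn2 gene, so every cell of both fractions carried it. Microglia, astrocytes and neurons had been taken in sequence from a single dissociated brain with magnetic beads (MACS): microglia on CD11b beads, astrocytes on ACSA-2 beads, and neurons as what flowed through after antibodies had removed non-neuronal and CD31+ cells. The neuron fraction was therefore defined by what was taken away, and no bead selected its cells. It also gave less RNA than the other fractions, according to the study. Libraries of the same fractions from wild-type (WT) littermates, both sexes mixed in each genotype, served for the comparison between genotypes. A feature (a mature miRNA, tRNA gene copy, piRNA or Ensembl transcript) entered the comparison when 2 or more of the 6 libraries had 5 or more counts of it, which left 4880 of the 203513 features in the table. They are described by RNA class, as given in the table. Replicates carry separate numbers in the labels, and p-values measure only the spread between these samples.

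Small RNAs differ in how they are made and in what they do. A miRNA is cut from a hairpin precursor and leads Argonaute to mRNAs that pair with its seed, bases 2 to 8, so miRNAs with a common seed share most of their possible targets. tRNAs carry amino acids to the ribosome, and C/D and H/ACA box snoRNAs guide the methylation and pseudouridylation of ribosomal and spliceosomal RNA. Neurons are known for miR-124, miR-9 and an abundance of snoRNAs transcribed from imprinted gene clusters, whereas microglia are known for miR-223, miR-142 and miR-146a, miRNAs of the myeloid lineage and of inflammatory signalling.

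The mature sequences on which the miRNA results turn are given here from 5′ to 3′ with the seed in capitals, as DNA letters, the way the table lists them. These are the 6 abundant miRNAs that were higher in the neuron fraction. Both arms of the miR-9 hairpin are among them.
miR-9-5p: tCTTTGGTtatctagctgtatga
miR-9-3p: aTAAAGCTagataaccgaaagt
miR-9b-3p: aTACAGCTagataaccaaaga
miR-124-3p: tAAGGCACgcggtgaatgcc
miR-195a-5p: tAGCAGCAcagaaatattggc
miR-100-5p: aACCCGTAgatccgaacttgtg
In GRCm39, miR-9-5p and miR-9-3p lie at chr13:83886940-83886962 and chr13:83886977-83886998 on the plus strand in Mir9-2, which is 1 of 3 hairpins for miR-9-5p. The first annotated hairpin of miR-124-3p holds it at chr14:64828158-64828177, and miR-100-5p lies at chr9:41442733-41442754, both on the plus strand.

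These miRNAs were higher in microglia and are described below. They are shown because each was nearly absent from the neuron fraction or took a large part of the microglial miRNA counts.
miR-146a-5p: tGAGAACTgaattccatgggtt
miR-146b-5p: tGAGAACTgaattccataggct
miR-223-3p: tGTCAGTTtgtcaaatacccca
miR-142a-3p: tGTAGTGTttcctactttatgga
miR-34a-5p: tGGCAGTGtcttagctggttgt
miR-190a-5p: tGATATGTttgatatattaggt
miR-23a-3p: aTCACATTgccagggatttcc
miR-27a-3p: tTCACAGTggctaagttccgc
miR-29b-3p: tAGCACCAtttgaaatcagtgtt
The 2 miR-146 members share their seed and come from different chromosomes, miR-146a-5p from chr11:43265262-43265283 on the minus strand and miR-146b-5p from chr19:46331229-46331250 on the plus strand. miR-223-3p lies at chrX:95286490-95286511 on the plus strand, miR-142a-3p at chr11:87647729-87647751 on the plus strand, and miR-23a-3p and miR-27a-3p close together at chr8:84935192-84935212 and chr8:84935356-84935376 on the plus strand.

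In 3 families, members with the same seed stood differently in the 2 fractions. Their sequences are shown together to set the shared seed beside the differing levels given below.
let-7b-5p: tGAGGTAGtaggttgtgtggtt
let-7c-5p: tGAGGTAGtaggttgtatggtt
let-7i-5p: tGAGGTAGtagtttgtgctgtt
miR-181a-5p: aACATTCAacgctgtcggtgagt
miR-181c-5p: aACATTCAacctgtcggtgagt
miR-181d-5p: aACATTCAttgttgtcggtgggt
miR-99a-5p: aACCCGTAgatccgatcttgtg
miR-99b-5p: cACCCGTAgaaccgaccttgcg
The lines for miR-99a-5p and miR-99b-5p belong beside miR-100-5p above, which has the same seed.

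The fraction labels were checked against transcripts that mark brain cell types, with the transcripts of each gene summed. Microglial markers followed the label. P2ry12, a purinergic receptor of resting microglia, had 0 counts in every neuron library and 14, 35 and 42 in microglia, and C1qa, a complement subunit, had 0 against 17, 36 and 45. The 13 microglial genes together had 10, 3 and 5 counts in the neuron libraries and 274, 521 and 499 in the microglia.
Neuronal markers were sparse. Rbfox3 (NeuN) had 0 counts in all 6 libraries, and Snap25, a synaptic SNARE protein, had 1, 1 and 4 counts against 0, 1 and 1. The 13 neuronal genes together had 71, 59 and 112 counts in the neuron fraction against 6, 12 and 3 in microglia, which is higher in every library. As CPM of library totals these sums were 30.3, 24.3 and 46.2 in knock-in neurons, against 10.5, 10.6 and 11.8 in knock-in astrocytes and 59.2, 14.1 and 50.7 in WT astrocytes. They thus stood above the knock-in astrocytes and overlapped the WT astrocytes. Among neuronal genes, Map2 (a dendritic microtubule protein) had 22, 11 and 27 against 1, 3 and 0 counts, and Tubb3 (neuronal tubulin) had 8, 12 and 7 against 0, 1 and 0. Stmn2, a microtubule regulator of growing axons, had 19, 15 and 23 against 0 in each microglial library, at least 7.15-fold higher when 3 counts per library are taken as the limit that a count of 0 allows.
Transcripts of other cells were present in the neuron fraction. The list of choroid plexus and ependymal genes had 859, 1016 and 1421 counts there against 61, 26 and 26, most of them from Ttr (815, 979 and 1340 against 54, 25 and 24), the thyroxine carrier of the choroid plexus, while Foxj1, which defines ciliated ependyma, had 2, 1 and 4 against 0. The 5 red blood cell genes had 104, 116 and 46 counts against 1, 1 and 0. The 7 endothelial genes had 127, 64 and 204 counts against 87, 365 and 243. Most of these came from Pecam1, which encodes CD31 (104, 49 and 147 against 85, 355 and 230). Of 2 endothelial rows tested with transcripts summed, 1 was higher (Bsg, log2 difference 2.53) and 1 lower. The 5 mural cell genes had 6, 9 and 1 counts against 0, 2 and 0. Astrocyte genes (11, 9 and 16 against 7, 8 and 10) and oligodendrocyte genes (15, 10 and 12 against 5, 12 and 7) were low in both, with Gfap at 0 in all 6 libraries. The part of choroid plexus, blood or endothelial RNA in the differences below was not tested. The names neuron and microglia are therefore used for the fractions as labelled.

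The neuron libraries held 2343693, 2427384 and 2424979 counts and the microglial libraries 3148211, 4316748 and 4296101. More features were detected in the neuron libraries, 23488 to 28558 against 13941 to 20324, at the lower depth. The factors that align library composition (TMM) were 1.19, 1.09 and 1.26 for neurons and 0.782, 0.891 and 0.874 for microglia. Atxn2 itself had 1, 2 and 10 counts against 1, 2 and 3, too few for a test of the gene that carries the repeat.

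Microglia gave a larger share of their reads to mature miRNAs and to tRNAs, and neurons to snoRNAs and to the misc_RNA class, among others. Mature miRNAs made up 2.13%, 1.33% and 1.60% of all counts in neurons and 5.86%, 8.45% and 8.36% in microglia, means of 1.69% ± 0.406 and 7.56% ± 1.47 (SD, n = 3). tRNA gene copies took 5.88%, 5.06% and 4.55% against 14.0%, 15.7% and 16.6%. Mitochondrial tRNAs took 0.693%, 0.605% and 0.723% against 2.09%, 1.87% and 2.00%. All 3 classes stood higher in every microglial library than in any neuron library. In the other direction, snoRNAs made up 27.5%, 29.8% and 29.4% of neuron counts and 23.7%, 19.4% and 19.2% of microglial counts. The misc_RNA class, which holds the 7SL and Y RNAs, took 0.498%, 0.437% and 0.381% against 0.130%, 0.128% and 0.117%. Protein-coding transcripts overlapped, at 3.82%, 3.47% and 3.92% against 2.95%, 4.04% and 4.06%. Of 23 classes with at least 0.01% of the counts, 18 did not overlap between the fractions. Each of the 18 had p = 0.1 by a two-sided exact permutation test, the smallest that 3 against 3 libraries allow, and an adjusted p of 0.128. Shares of counts are relative, so that a class can fall only because others rise, and in bulk fractions fewer cells of a type and less RNA per cell cannot be told apart.

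**Figure D1:**
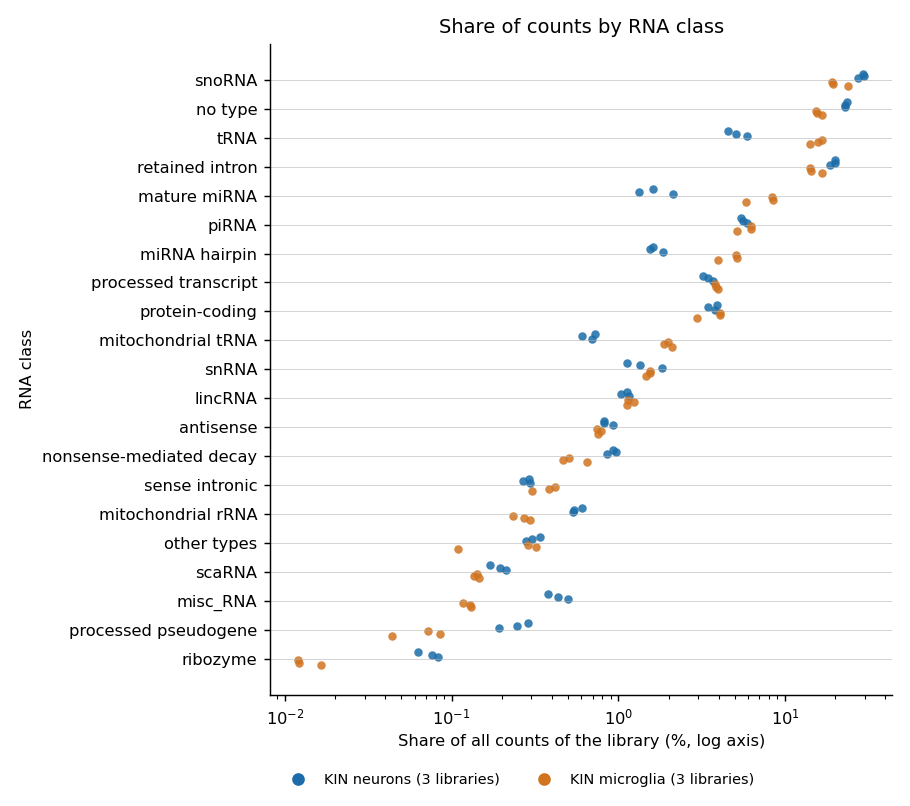
Share of all counts (percent, log axis) that each RNA class took in the 3 knock-in neuron and the 3 knock-in microglial libraries, 1 point per library, for classes with at least 0.05% of counts. Mature miRNAs lay between 1.33% and 2.13% in neurons and between 5.86% and 8.45% in microglia, while protein-coding transcripts overlapped.

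Feature by feature, the fractions differed widely. edgeR's quasi-likelihood test with Benjamini-Hochberg adjustment called 2584 of the 4880 features, 53.0% of all tested, with an adjusted p up to 0.05 and a log2 difference of 1 or more in size. Of these, 1305 (26.7%) were higher and 1279 (26.2%) lower in neurons, and the values of 3036 features (62.2%) did not overlap between the fractions. The median log2 difference of all features, neurons minus microglia, was 0.02. Against that background, 274 of 360 mature miRNAs (76.1%) were lower in neurons and 29 (8.06%) higher, with a median of -3.09, or -2.58 when features at 0 are put at their bound. Of 329 tRNA gene copies, 287 were lower and 7 higher (median -1.90), and of 241 miRNA hairpins 161 were lower and 29 higher (median -2.11). Protein-coding transcripts went the other way, with 615 of 1542 higher and 191 lower (median 0.95, or 0.84 with bounds). Counts of calls depend in part on the minimum for entry. Of all 4880 features, 1267 reached it through the neuron libraries and not in the microglial ones. Among the 3418 that reached it in microglia, 337 were higher and 1279 lower in neurons. The matching calls for the 3852 that reached it in neurons were not counted. How many mature miRNAs or tRNAs reached it through the microglial libraries alone was not counted either. Of the 360 mature miRNAs, 43 had 0 counts in all neuron libraries and 1 had 0 in all microglial ones. The part of the minimum in the protein-coding and miRNA directions, and so in the 76.1%, was not tested. Of 300 features that the table types as snoRNA, 58 were higher and 61 lower (median -0.02). A further 206 features without a type in the table are annotated as snoRNAs, and 173 of them were higher and 7 lower (median 3.74).
The class directions depend on the scale on which the libraries are set equal. When TMM factors were taken from mature miRNAs alone, the median of all features moved to 2.48, so values on that scale are read against that shift. On it mature miRNAs still had more lower than higher calls (137 against 88, median -0.76), whereas hairpins had 90 higher and 72 lower and tRNA copies 93 higher and 19 lower. Under library totals the median of all features was 0.49.

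**Figure D2:**
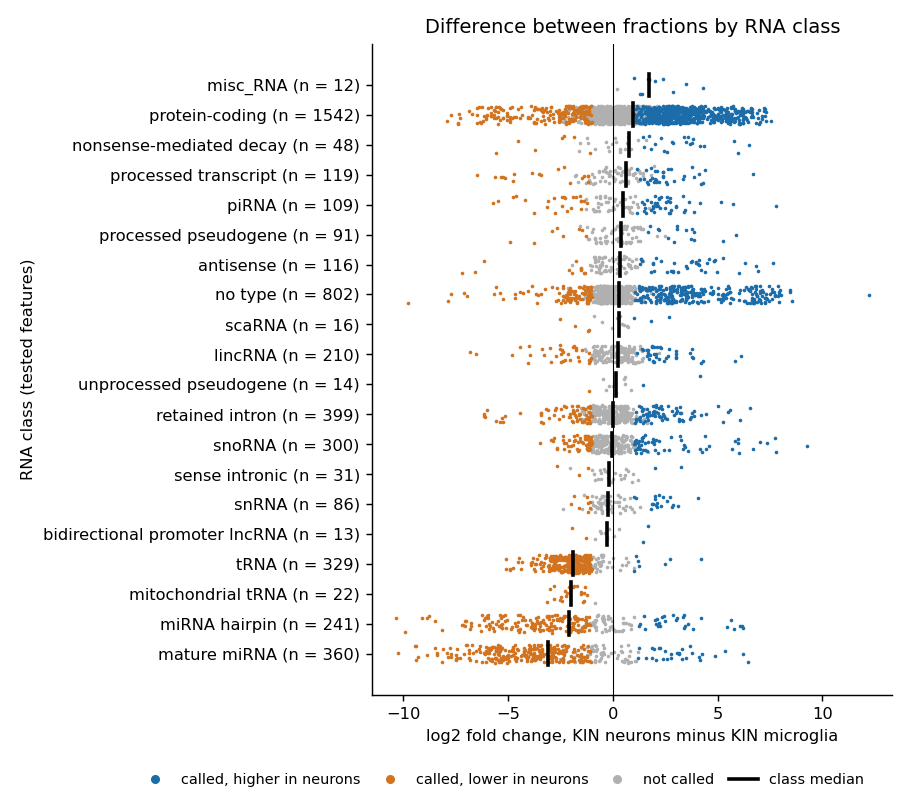
Log2 difference (knock-in neurons minus knock-in microglia) of each tested feature by RNA class, coloured by whether it was called higher, called lower or not called, with a bar at the class median. Mature miRNAs (median -3.09) and tRNA copies (-1.90) lie mostly below 0 and protein-coding transcripts (0.95) mostly above, while on the scale of mature miRNAs tRNA copies and hairpins had more higher than lower calls.

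The miRNAs of the miR-9 hairpin stood out on the neuronal side. miR-9-5p, which controls the timing of neurogenesis and is made in neural progenitors, neurons and astrocytes, had 7152, 4048 and 5743 counts in neurons and 166, 268 and 234 in microglia. Its level, as CPM (TMM-scaled counts set relative to library size), was 1989 ± 528 against 66.5 ± 3.76 (SD, n = 3), a log2 difference of 4.90 ± 0.28 (SE, adjusted p = 1.88e-12), or 29.9-fold. The opposite arm, miR-9-3p, had 2407, 1421 and 1558 counts against 20, 28 and 24, a log2 difference of 6.45 ± 0.35 (adjusted p = 8.62e-13), or 87.5-fold. miR-9-5p was the most abundant miRNA of the neuron fraction, with 13.9% ± 1.17 of the mature miRNA counts (SD, n = 3) against a mean of 0.0762% in microglia. Summed over the 2 arms, knock-in astrocytes had 7280, 7335 and 6926 CPM of library totals, above the 4079, 2253 and 3011 in knock-in neurons.
miR-124-3p, the miRNA that marks differentiated neurons, differed less. It had 380, 178 and 214 counts in neurons and 74, 114 and 121 in microglia, or 91.1 ± 39.1 against 30.6 ± 1.39 CPM (SD, n = 3). The log2 difference was 1.57 ± 0.33 (adjusted p = 0.000286), or 2.97-fold, and all 3 neuron libraries were above all 3 microglial ones. The other abundant miRNAs that rose were miR-100-5p (303, 193 and 260 counts against 17, 52 and 65), a member of the miR-99 family, with a log2 difference of 2.79 ± 0.36, and miR-195a-5p (233, 137 and 163 against 36, 57 and 81), a member of the miR-15/16 family, with 1.88 ± 0.33. miR-9b-3p (351, 118 and 140 against 21, 61 and 49) had 2.51 ± 0.41. Only these 6 miRNAs of the 29 that were called higher had a mean of at least 50 CPM in neurons and no overlap with microglia.

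Among miRNAs lower in neurons, 101 passed the same limits on level and overlap. miR-146a-5p, a feedback inhibitor of Toll-like receptor signalling, was the most abundant microglial miRNA, with 15.6% ± 0.213 of mature miRNA counts (SD, n = 3) against 0.894% in neurons. It had 342, 398 and 297 counts in neurons and 29196, 56430 and 55457 in microglia, a log2 difference of -6.80 ± 0.26 (SE, adjusted p = 4.44e-15). miR-223-3p, a regulator of myeloid maturation, had 4, 9 and 5 counts against 883, 2651 and 1729, a log2 difference of -7.86 ± 0.42, or 233-fold higher in microglia. miR-34a-5p, whose gene is induced by p53, had 7, 4 and 2 against 1287, 2417 and 2072, a log2 difference of -8.49 ± 0.41, or 365-fold.
Several miRNAs were close to absent from neurons. miR-326-3p had 1, 0 and 0 counts against 134, 490 and 530, a ratio of scaled counts of 975 (95% exact interval 175 to 38531, for counting error only). miR-455-5p had 1, 0 and 0 against 201, 431 and 459 (ratio 921), and its other arm miR-455-3p 0, 1 and 5 against 804, 721 and 861. For miR-190a-5p, encoded in an intron of Tln2, the counts were 1, 1 and 1 against 464, 1003 and 1098, a ratio of 722 (247 to 3504). The hypoxia-responsive miR-210-3p had 1, 0 and 0 against 138, 290 and 332, a ratio of 642 (115 to 25387). The remaining named miRNAs were miR-3068-5p (1, 1 and 1 against 185, 302 and 383), miR-339-5p (5, 3 and 2 against 482, 1045 and 1136) and miR-27a-3p (5, 2 and 3 against 412, 850 and 992). miR-511-3p, which lies in an intron of the macrophage mannose receptor gene Mrc1 and was singled out after its values were seen, had 0 counts in all 3 neuron libraries and 118, 197 and 173 in microglia, at least 45.6-fold higher in microglia.

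**Figure D3:**
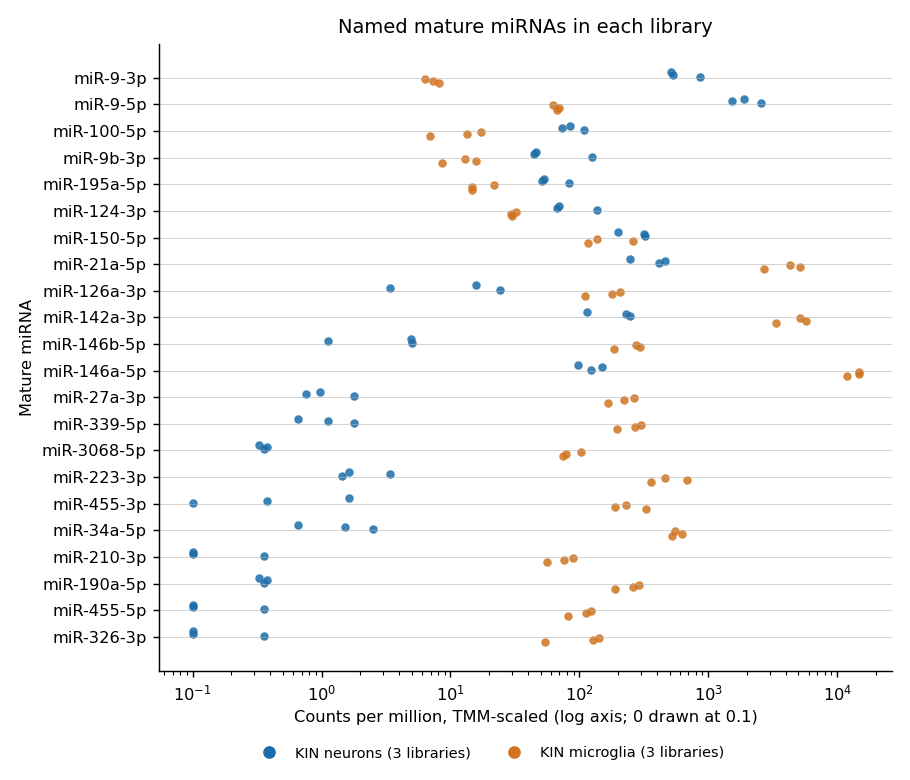
TMM-scaled CPM (log axis, 0 drawn at 0.1) of 22 mature miRNAs in the 3 knock-in neuron and 3 knock-in microglial libraries, 1 point per library. miR-9-3p and miR-9-5p were 87.5-fold and 29.9-fold higher in neurons, and miR-34a-5p and miR-223-3p were 365-fold and 233-fold higher in microglia.

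The miRNA populations also differed in make-up. The 10 most abundant miRNAs took 57.3%, 57.0% and 60.6% of mature miRNA counts in neurons and at most 51.6% in microglia. In neurons miR-9-5p was followed by miR-125b-5p, with a mean of 11.9% of miRNA counts against 2.81% in microglia, and let-7c-5p, with 9.17% against 2.06%. In microglia miR-16-5p took 7.27% against 3.98% in neurons, miR-142a-3p 5.27% against 1.40%, miR-21a-5p 4.48% against 2.68% and miR-29b-3p 3.39% against 0.369%. These shares are within the miRNAs, and on the scale of all counts miR-125b-5p (log2 difference -0.54) and let-7c-5p (-0.49 ± 0.22) were not called.

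Members of a seed family mostly lay on the microglial side, as mature miRNAs in general did. Of 45 seeds shared by at least 2 tested miRNAs (124 miRNAs), 21 had every member lower in neurons, none had every member higher, and 6 had calls in both directions. With 76.1% of all mature miRNAs lower and 8.06% higher, these counts are a description and not a trait of families. In the let-7 family, which restrains proliferation and marks differentiated cells, 7 of 9 members were lower (median -3.04), and on the mature miRNA scale 4 were lower and 2 higher (median -0.58). let-7i-5p had 113, 78 and 124 counts against 2647, 6582 and 6592, a log2 difference of -5.36 ± 0.30 (SE). let-7b-5p, with 1798, 1177 and 1994 counts against 929, 1752 and 1639, had 0.46 ± 0.24 and was not called (adjusted p = 0.113). These 2 members carry the same seed and stood at opposite ends of the family.
The miR-181 family, which fine-tunes antigen receptor and inflammatory signalling, was split. miR-181a-5p had 1856, 914 and 1261 counts in neurons against 2962, 5376 and 5493 in microglia (-1.51 ± 0.26), whereas miR-181d-5p had 90, 63 and 70 against 5, 12 and 13 (3.14 ± 0.39). miR-181c-5p, with 78, 30 and 43 against 8, 10 and 21, followed miR-181d-5p at 2.20 ± 0.42, and both lie close together at chr8:84905553-84905574 and chr8:84905388-84905410. On the mature miRNA scale 3 of the 4 family members were higher and none lower. In the miR-99/100 seed, miR-99a-5p had 885, 391 and 541 counts against 4404, 8125 and 8608 (-3.27 ± 0.28), opposite to miR-100-5p, and neither miR-99a-5p nor miR-99b-5p was called lower on the mature miRNA scale. miR-92b-3p, a miRNA of neural precursors, had 70, 46 and 61 against 7, 11 and 17 (2.58 ± 0.38), while miR-32-5p of the same seed had 3, 4 and 3 against 69, 108 and 156 (log2 difference -4.74).
In other families all or nearly all members were lower in neurons. All 3 miR-29 members, repressors of collagen and of DNA methyltransferases, were lower in neurons on both scales, miR-29b-3p with 178, 149 and 112 counts against 6611, 11527 and 12275 (-5.84 ± 0.29). The same held for all 5 tested members of the miR-23/27/24 clusters (median -5.58), where miR-23a-3p had 76, 41 and 56 counts against 5586, 9046 and 9626 (-6.88 ± 0.30). Both miR-221-3p and miR-222-3p were lower too (median -5.15). All 5 members named miR-30 were lower (median -2.80) and so were 8 of 9 members of miR-17-92 and its paralogs (median -1.64). miR-384-5p, which has the miR-30 seed, was higher (3.48), so this seed had calls in both directions. On the mature miRNA scale none of the 5 members named miR-30 was called and 2 of the miR-17-92 list were higher. Of 96 hairpins with both arms tested, 92 had both arms on the same side, and none had its arms called in opposite directions. These counts stand beside the 76.1% of all mature miRNAs that were lower.

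**Figure D4:**
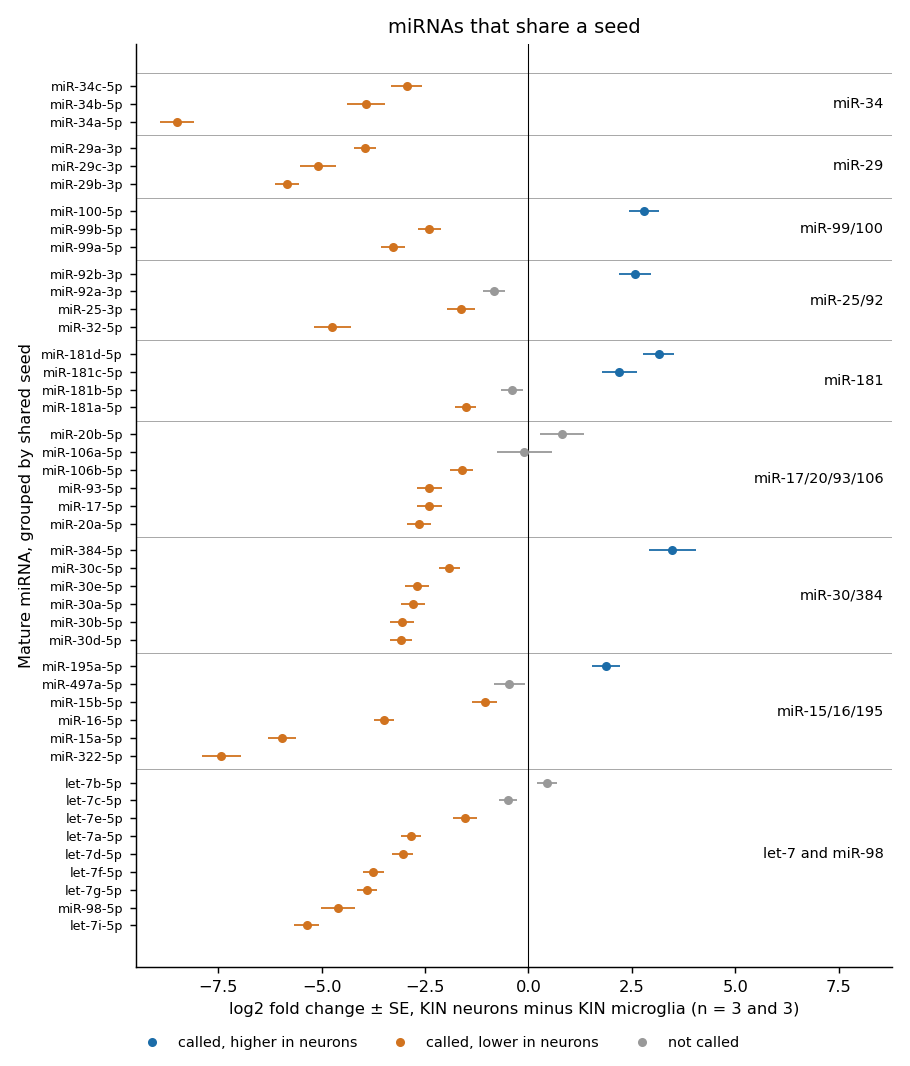
Log2 difference (knock-in neurons minus knock-in microglia) ± SE of the members of 9 groups of miRNAs that share a seed, 1 point per miRNA, coloured by call. The miR-181 members run from -1.51 to 3.14 and the let-7 members from -5.36 to 0.46, while all miR-29 members lie below 0, and on the mature miRNA scale 3 miR-181 and 2 let-7 members were higher.

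Lists of miRNAs known from single cell types gave the following counts, beside the 76.1% of all mature miRNAs that were lower. All 4 myeloid miRNAs were lower in neurons (median -5.45, or -3.48 with bounds), led by miR-142a-3p with 694, 614 and 347 counts against 8238, 21951 and 19194 (-4.58 ± 0.30). Of 5 tested miRNAs of inflammation, 4 were lower, among them miR-21a-5p (1153, 1219 and 759 against 6623, 19624 and 16058, -3.43 ± 0.28) and miR-146b-5p (14, 3 and 15 against 460, 1132 and 1029, -6.06 ± 0.42). miR-155-5p, which promotes inflammatory activation, had 69, 110 and 71 against 114, 292 and 203 and was not called (log2 difference -0.98, adjusted p = 0.0143).
The 8 tested neuronal miRNAs of 12 did not move together, with 2 higher, 2 lower and 4 not called (median -0.17), and on the mature miRNA scale 7 were higher. As CPM of library totals, all 12 summed to 229, 105 and 137 in knock-in neurons. Knock-in astrocytes stood above them, at 2277, 1979 and 1208. miR-153-3p, a repressor of synaptic vesicle proteins, had 58, 22 and 28 against 2, 3 and 4 (3.77 ± 0.51). miR-132-3p, induced by neuronal activity, had 2, 1 and 4 against 14, 24 and 30 (-2.97 ± 0.53), and miR-138-5p, a miRNA of dendritic spines, was also lower (log2 difference -1.12, adjusted p = 0.0226). miR-128-3p, with 41, 29 and 34 against 58, 88 and 73, was not called. Of 32 miRNAs of the imprinted Dlk1-Dio3 cluster, which neurons are known to express, 8 could be tested and 3 were higher (median 0.99), miR-541-5p with 16, 9 and 23 counts against 1, 2 and 3.
miRNAs of other brain and blood cells were lower in neurons or not called. The endothelial miRNAs miR-126a-3p (68, 9 and 48 against 273, 694 and 776, -3.51 ± 0.45) and miR-126a-5p (-4.53) were lower in neurons, as were 3 of 4 oligodendrocyte miRNAs (median -2.69) and 3 of 6 tested epithelial and choroid plexus miRNAs (median -1.35), although on the mature miRNA scale 1 oligodendrocyte miRNA was higher and 1 lower (median -0.26) and 3 of the latter 6 were higher. The choroid plexus miRNA miR-204-5p was not called (-0.79), in contrast to the Ttr counts above. The erythroid miR-451a had 164, 93 and 107 counts against 81, 508 and 133, with microglia replicate 2 above all other libraries, and was not called (-0.64). miR-150-5p of lymphocytes had 893, 837 and 605 against 285, 996 and 515 (0.70 ± 0.31, adjusted p = 0.0543).

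Hairpins and host transcripts hold the sequence of the miRNA inside them, so they are not separate observations. How the reads of a locus came to be placed on each of them was not tested. The hairpin Mir9-2 had 795, 465 and 631 counts against 7, 16 and 18 (log2 difference 5.78), Mir9-3 had 903, 574 and 728 against 15, 23 and 14 (5.63), and C130071C03Rik, the lincRNA that holds Mir9-2, had 750, 476 and 594 against 6, 17 and 15 (5.84). On the microglial side Mir190a had 0, 0 and 1 counts against 389, 797 and 918, and Mir210 had 0 against 69, 160 and 174, at least 36.4-fold higher in microglia. F630028O10Rik, which holds Mir223, had 1, 1 and 1 against 61, 197 and 127. Protein-coding Cd46 (-5.98), the complement regulator, and the noncoding A330023F24Rik (-6.16) both hold Mir29b-2 or Mir29c, and the Cd46 transcript had 146, 123 and 102 counts against 6139, 10727 and 11545, close to those of miR-29b-3p. Other holders of a small RNA that were named by the rule were 4833445I07Rik (Mir425, -4.80), Aopep (Mir24-1, -5.56), Dvl2 (Mir324, -4.53), Tlcd2 and Mir22hg (Mir22, -5.62 and -5.32), Wwp2 (Mir140, -3.42), 6720427I07Rik (let-7 hairpins, -2.97) and Gm48742 (Mir100, 3.03).

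Most cytosolic tRNAs were lower in neurons. Copies of a tRNA gene that share anticodon and family were added up to isodecoders, since their reads cannot be told apart. Of 175 isodecoders, 140 were lower, 5 higher and 30 not called (median -1.89), in a table where 24.9% of features were lower and 26.6% higher, but on the mature miRNA scale 58 were higher and 13 lower (median 0.63). tRNA-Glu-CTC-1, the most abundant in both fractions, had 22659, 19414 and 16110 counts against 65800, 103190 and 97999 (-2.02 ± 0.19, adjusted p = 6.26e-09). Every tested isodecoder of Asp, Cys, Gln, Glu, Ile, Phe, Pro, Ser, Trp and the initiator iMet was lower. The medians were lowest for Trp (-3.75, 6 isodecoders) and Cys (-3.49, 9 isodecoders) and closest to 0 for elongator Met (-0.92, 5 isodecoders).
A few alanine tRNAs stood higher in neurons. tRNA-Ala-AGC-8 had 162, 120 and 161 counts against 6, 10 and 12 (4.14 ± 0.38, adjusted p = 4.65e-09), and tRNA-Ala-AGC-3 had 512, 298 and 324 against 72, 83 and 81 (2.41 ± 0.32). Nuclear-encoded tRNA-Arg-TCT-4, known as a tRNA of central nervous system neurons, had 18, 25 and 11 against 5, 15 and 12 and was not called (0.96 ± 0.44, adjusted p = 0.0715), whereas tRNA-Arg-TCT-1 of the same anticodon had 468, 385 and 283 against 4259, 4160 and 4854 (log2 difference -3.41).
The largest decreases rested partly on uneven microglial libraries. The initiator tRNA-iMet-CAT-3 had 44, 38 and 31 counts against 210, 1751 and 3110 (-5.16 ± 0.55), and tRNA-Cys-GCA-18 had 2, 1 and 5 against 9, 137 and 219 (log2 difference -5.15). Microglia replicate 1 lay at least 3 times below both other microglial libraries for 18 isodecoders, Trp-CCA-1 (127 counts against 1832 and 2512) and several of Gly, Cys and Leu among them. The same was seen for 11 of 115 isodecoders with a mean of at least 50 CPM in microglia and for 0 of 1045 other features at that level. Without replicate 1 of both fractions, 134 of 170 isodecoders were lower and 4 higher (median -1.91).

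Mitochondrial tRNAs, which serve translation of the 13 proteins encoded in that genome, were lower in neurons in 21 of 22 cases (median -1.98). Of all features 26.2% were lower. On the mature miRNA scale, however, 6 of these tRNAs were higher and none lower. mt-Tk had 508, 418 and 459 counts against 4025, 4957 and 5007 (-3.12 ± 0.25), and mt-Ts2, the most abundant, had 2550, 2306 and 2594 against 13880, 15314 and 17060 (log2 difference -2.43, and 0.0073 on the mature miRNA scale). mt-Tn was the exception (-0.84). The rRNAs of the same genome did not follow. mt-Rnr2 had 8467, 8751 and 9580 counts against 6558, 7987 and 6882 (0.53) and mt-Rnr1 a log2 difference of 0.72, neither of them called. Among mitochondrial mRNAs only mt-Co1, a subunit of cytochrome c oxidase, was called, with 115, 93 and 80 against 262, 279 and 269 (-1.29 ± 0.31). Its call was lost under library totals (-0.80) and turned to higher on the mature miRNA scale (1.13).

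snoRNAs from imprinted clusters were higher in neurons than in microglia. They are processed from introns of long host transcripts and most have no known rRNA target. These regions were delimited after the values had been seen, so their counts are a description. Between Snhg14 and Snrpn (chr7:58957672-59820763, the region deleted in Prader-Willi syndrome), 178 of 179 tested snoRNAs were higher and none lower, with a median of 4.21, or 4.10 with bounds. They consist of 64 distinct sequences of 67 to 94 bases, so that near-identical copies are not independent. Of the 179, 158 reached the minimum of 5 counts in 2 neuron libraries and not in 2 microglial ones, so the count of 178 is a description. The 21 that reached it in microglia were all higher. Their summed counts were 19899, 15765 and 20757 in neurons and 473, 415 and 537 in microglia, which is 8490, 6495 and 8560 CPM of library totals against 150, 96.1 and 125. Between Meg3 and Mirg (chr12:109506877-109715898) all 10 tested snoRNAs were higher (median 4.52), with 498, 429 and 671 summed counts against 17, 22 and 43.
Members of these clusters are shown with the first TGATGA in their first 20 bases and the CTGA in their last 20 bases in capitals, the letters of the C and D boxes, on the strand of the transcript. Gm25615, Gm22584 and Gm23787 were chosen after their values were seen, as members with large differences, and Snord64 is shown beside them for its different sequence.
Gm25615: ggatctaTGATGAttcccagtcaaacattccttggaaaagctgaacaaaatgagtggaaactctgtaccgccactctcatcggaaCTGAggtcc
Gm22584: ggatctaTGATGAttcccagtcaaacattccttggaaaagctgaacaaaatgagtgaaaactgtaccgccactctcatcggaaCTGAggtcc
Snord64: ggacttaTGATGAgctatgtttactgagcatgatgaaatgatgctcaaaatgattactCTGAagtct
Gm23787: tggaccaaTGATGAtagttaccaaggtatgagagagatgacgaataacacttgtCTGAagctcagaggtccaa
Gm25615 (chr7:59513988-59514081, minus strand) had 475, 483 and 686 counts in neurons and 0 in every microglial library, at least 206-fold higher. Gm22584 (chr7:59363282-59363373, minus strand) had 365, 368 and 462 against 3, 1 and 2, a log2 difference of 7.76. Snord64 (chr7:59628556-59628622, minus strand) had 495, 338 and 460 against 21, 22 and 37 (4.24 ± 0.35). Each of these 3 was higher in all neuron libraries. Gm23787 (chr12:109651396-109651468, plus strand) had 68, 63 and 81 counts against 0, at least 26.7-fold higher. Both motifs were found in 184 of the 189 tested snoRNAs of the 2 regions (97.4%) and in 283 of all 506 tested snoRNAs (55.9%), a class that also holds H/ACA box RNAs.
The host transcripts moved with them, but a transcript that holds a small RNA is not a separate observation. All 4 tested longer features of the chromosome 7 region hold one, as do 16 of 21 on chromosome 12. How the reads were placed on each was not tested. Snhg14, with its transcripts summed, had 548, 464 and 523 counts against 6, 9 and 12 (6.03 ± 0.38), and Rian, the snoRNA host of the chromosome 12 cluster, had 933, 818 and 1244 against 54, 112 and 117 (3.53 ± 0.30). Meg3 itself had 14, 12 and 40 against 5, 3 and 2 (log2 difference 2.74). The chromosome 7 snoRNAs were also present in knock-in astrocytes, with 4225, 3700 and 5023 CPM of library totals, below the neurons and above the microglia. The chromosome 12 snoRNAs had 210, 201 and 317 CPM in knock-in astrocytes, which overlapped the 212, 177 and 277 in knock-in neurons. Outside both regions 43 of 317 snoRNAs were higher and 68 lower (median -0.11), beside 26.7% and 26.2% of all features.

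**Figure D5:**
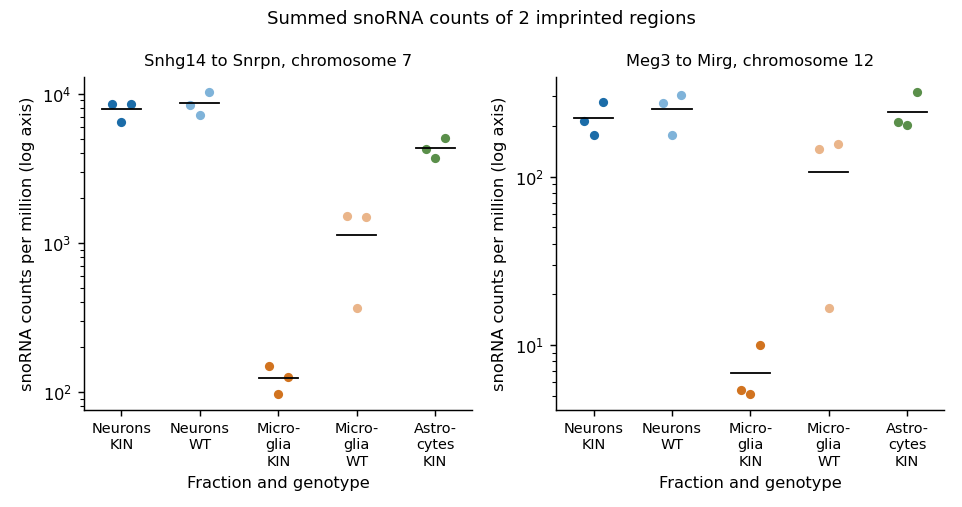
Summed CPM of library totals (log axis) of the snoRNAs between Snhg14 and Snrpn and between Meg3 and Mirg in neurons and microglia of both genotypes and in knock-in astrocytes, 1 point per library with a line at the group mean. Knock-in microglia lie between 96.1 and 150 CPM for the first region, below WT microglia at 363 to 1500 and knock-in neurons at 6495 to 8560.

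Most snoRNAs that guide rRNA modification were not called. Of 77 named C/D box snoRNAs, 15 were higher and 10 lower (median 0.07), beside 26.7% and 26.2% of all features, while on the mature miRNA scale 74 were higher. Snord85 had 1431, 1398 and 998 counts against 8070, 12003 and 11744 (-2.80 ± 0.24), and Snord17 had 3372, 3567 and 2601 against 14658, 18547 and 19249 (log2 difference -2.22). Snord68, the most abundant snoRNA, had 31102, 41382 and 44799 against 37088, 49410 and 47139 and was not called (0.03, adjusted p = 0.889). Snord96a and Snord32a were called higher (1.19 and 1.08), but microglia replicate 1 stood apart for both, with 21559 counts of Snord96a against 5075 and 4584 in the other 2 libraries.
Of 35 H/ACA box snoRNAs, 12 were lower and none higher (median -0.68), beside the 26.2% of all features that were lower, yet 2 were higher under library totals or DESeq2-type factors and 28 on the mature miRNA scale. Snora41 had 33, 22 and 13 counts against 178, 190 and 198 (-2.84 ± 0.38), and Snora23 had 102, 61 and 59 against 489, 540 and 602 (log2 difference -2.66). RNAs of the Cajal body, where spliceosomal snRNAs are modified, were divided: Scarna8 (1086, 1036 and 825 against 147, 210 and 181, 2.69 ± 0.28) and Scarna10 (508, 420 and 350 against 56, 53 and 43, 3.26 ± 0.34) were higher, and Scarna2 was lower (-1.20, but -0.73 and not called under library totals, and 1.27 on the mature miRNA scale). Of 8 tested spliceosomal snRNAs only Rnu5g, the U5 snRNA of the table, was lower (-1.07 ± 0.21). It was not called with DESeq2-type factors or DESeq2 (both -0.89), under library totals (-0.59) or without neuron replicate 3 (-0.82), and it was higher on the mature miRNA scale (1.38).

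Among Y, 7SL and RNase RNAs, which serve protein export and RNA processing, 4 of 7 tested were higher in neurons and none lower (median 1.29). Of all features 26.7% were higher and 26.2% lower. At least 4 of the 7 were higher under each scaling tried. Rn7s1, a 7SL RNA of the signal recognition particle, had 3094, 3150 and 2531 counts against 859, 1231 and 1071 (1.71 ± 0.24, adjusted p = 2.19e-06), and Rn7s6 had 721, 788 and 655 against 143, 158 and 175. Rpph1, the RNA of RNase P that trims tRNA precursors, had 1733, 1697 and 1366 against 415, 414 and 405 (2.15 ± 0.27, adjusted p = 5.48e-07). Rny1, a Y RNA bound by Ro60, was called too (1.29), while Rny3, with 1592, 1092 and 1209 against 1192, 1338 and 1397, was not (0.19). The neuronal Bc1, a dendritic repressor of translation, had 157, 119 and 120 counts against 10, 25 and 24 (2.87 ± 0.36). The nuclear Malat1 (224, 244 and 325 against 60, 120 and 121) and Neat1 (109, 155 and 208 against 36, 80 and 59) had log2 differences of 1.52 and 1.55 with their transcripts summed.

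Fragments of histone mRNAs were higher in neurons. Of 73 histone transcripts, 72 were higher (median 4.62, or 3.77 with 12 transcripts at 0 in microglia put at their bound), beside 26.7% of all features. The count is a description, since 65 of the 73 passed the minimum of 5 counts through the neuron libraries and not in 2 microglial ones, and the 8 others were all higher. The exception was H2az1, a variant made outside S phase (0.85). Their summed counts were 2093, 1721 and 1603 against 129, 181 and 132. H1f2 had 99, 94 and 104 counts against 17, 19 and 17 (2.69 ± 0.35), and H4c4 had 84, 62 and 51 against 7, 6 and 7 (log2 difference 3.51). Replication-dependent histone mRNAs end in a stem-loop and carry no poly(A) tail. Mki67, a protein of cycling cells, named after its values were seen, had 24, 35 and 31 counts against 0, 1 and 0. Genes of immature neurons, also named after their values were seen, were Sox11 (44, 28 and 46 against 0, 0 and 1), Dcx (14, 13 and 9 against 0) and Tubb2b (35, 19 and 42 against 0, 1 and 1).
Transcripts of ribosomal protein genes were higher in 69 of 144 cases and lower in 11 (median 1.55), and among the 110 that hold no small RNA 63 were higher and 3 lower (median 1.83). Of all features 26.7% were higher and 26.2% lower, and of protein-coding transcripts 39.9% and 12.4%. On the mature miRNA scale 138 ribosomal protein transcripts were higher. The sum over all 925 features of the list, those that hold a small RNA included, went the other way on the TMM scale. It was 50090, 61282 and 51831 CPM in neurons against 90023, 68188 and 69042 in microglia. How many of the 144 passed the minimum through the neuron libraries alone was not counted. Enpp2 (autotaxin), secreted by the choroid plexus, had 514, 623 and 1046 counts against 36, 21 and 14 with its transcripts summed (4.92 ± 0.41), next to Ttr (4.91 ± 0.40) and Kl (35, 29 and 68 against 4, 0 and 1). Folr1, a folate receptor of the choroid plexus, had 7, 7 and 8 against 3, 1 and 1 (log2 difference 2.14). On the microglial side Csf1r, the receptor on which microglia depend for survival, had 2, 1 and 1 counts against 38, 78 and 57 (log2 difference -4.94), and in the table of summed transcripts all 11 tested genes of the 13 on the microglial list were lower, where 25.7% of features were lower and 27.9% higher.

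Longer transcripts that contain a small RNA held much of the remaining signal. They took 35.0%, 36.8% and 37.5% of all counts in neurons and at most 28.9% in microglia, and 1341 such features had counts. The retained intron of Rpl13, a ribosomal protein gene, had 31243, 41558 and 44994 counts against 37232, 49650 and 47377, nearly those of Snord68 inside it. When the counts of such features were moved to the class of the small RNA, an alternative chosen after seeing the data, snoRNAs took 58.3% of counts in neurons and 41.0% in microglia, and 17 classes did not overlap.
Features listed as piRNAs, a class known for silencing transposons in the germ line, overlap other RNAs. Of 109, 41 were higher and 24 lower (median 0.48). piR-68681 had 7937, 7589 and 8117 counts against 28207, 65997 and 62172 (-2.43, and 0.058 on the mature miRNA scale), and piR-57926 had 1224, 1932 and 1926 against 103, 161 and 147 (3.87 ± 0.29). The pseudogenes Gm12895 and Gm12896 had nearly the counts of piR-57926 (1351, 2197 and 2100 against 113, 212 and 172 for the first) and the same difference (3.76).

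WT libraries of the same fractions showed where the contrast itself differed by genotype. In WT mice 1446 of 5166 features (28.0%) were called between neurons and microglia, but a call in only one genotype is not a difference between them. A test of the difference, fitted over 12 libraries, called 41 of 6414 features (0.639%). The log2 difference, neurons minus microglia, was more positive in knock-in than in WT mice for 37 and more negative for 4. Of the 41, 32 lay between Snhg14 and Snrpn and 3 between Meg3 and Mirg. Snhg14 (an antisense transcript) had 262, 217 and 269 counts in knock-in neurons against 1, 1 and 2 in knock-in microglia, and 135, 169 and 207 against 51, 10 and 57 in WT, an interaction of 4.29 ± 0.74 (adjusted p = 0.0125). The summed chromosome 7 snoRNAs stood at 150, 96.1 and 125 CPM of library totals in knock-in microglia and at 1500, 363 and 1496 in WT microglia, without overlap. In neurons the same sums were 8490, 6495 and 8560 against 8372, 7183 and 10218, which overlapped.
WT microglia replicates 1 and 3 stood above replicate 2 in other RNAs as well. The neuronal gene list had 83, 19 and 116 counts in the 3 WT microglial libraries against 6, 12 and 3 in knock-in ones, the astrocyte list 41, 12 and 39 against 7, 8 and 10, and the 2 miR-9 arms 731, 286 and 897 against 186, 296 and 258. The part of these RNAs in the interaction was not tested. edgeR's test called 0 features without WT microglia replicate 1 and 0 without replicate 3 (447 and 479 at an unadjusted p under 0.05), and 120 without replicate 2. The count also fell to 0 and 1 without knock-in microglia replicates 2 and 3 (563 and 519 at an unadjusted p under 0.05), and to 6 without any 1 of the 3 knock-in neuron libraries, while it was 87 and 75 without WT neuron replicates 1 and 2.
Outside the imprinted regions 6 features were called. Mir9-2 had 91, 358 and 178 counts in WT neurons against 55, 24 and 68 in WT microglia, a smaller contrast than in knock-in mice (interaction 2.61 ± 0.57, adjusted p = 0.0421). miR-92b-3p had 20, 50 and 23 against 175, 22 and 194 in WT, opposite to the knock-in libraries (3.44 ± 0.74, adjusted p = 0.0381), again with WT microglia replicates 1 and 3 high. The erythroid miR-451a had 144, 547 and 96 in WT neurons against 57, 67 and 75 in WT microglia (-3.59 ± 0.79), and its partners miR-486a-5p (-4.08 ± 0.93) and Mir486 (-4.92 ± 1.05) moved likewise, with knock-in microglia replicate 2 the highest knock-in library for all 3. Mir146b, with 13, 4 and 13 counts against 393, 962 and 847 in knock-in and 10, 18 and 7 against 215, 213 and 265 in WT mice, had an interaction of -2.69 ± 0.62 (adjusted p = 0.0499).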

How the data were processed

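Total RNA of the sorted fractions was extracted with TRIzol, and small RNA libraries with molecular identifiers were sequenced. Per the study's methods and processing notes, reads were trimmed with cutadapt 4.6, checked with FastQC 0.11.9 and MultiQC 1.23, aligned with Bowtie2 2.4.4 in successive rounds (miRNA, tRNA, piRNA, Ensembl noncoding RNA, cDNA; mm39) and counted with HTSeq 2.0.2 without strand. Collapsing of identifiers is not given in the sources used here. The deposited table holds raw counts per feature, as the authors counted them, and 36 further per-library columns on other scales, group means and the authors' DESeq2 comparisons, none of which was used.

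Groups came from the labels. Features that reached 5 counts in 2 or more of the 6 libraries were tested with edgeR 4.0.16 (R 4.3.3, TMM factors, quasi-likelihood test) and called where the Benjamini-Hochberg adjusted p was 0.05 or less and the log2 difference 1 or more in size. The script was tested on simulated data. Identical tRNA genes were summed to isodecoders. With 3 libraries a group, exact permutation tests of class shares cannot go below p = 0.1. A group at 0 was put at 3 counts per library, and ratios of 1 to 3 counts have exact 95% intervals, for counting error only. Named features were, per class, the called ones with the largest difference above 50 CPM (mature miRNA, 10 per direction) or 20 CPM (others, 2 per direction) without overlap, the most abundant ones, and members of 41 lists. Members and lists were chosen with earlier results of these data known. Mature miRNA sequences came from the table, and positions and snoRNA sequences from GENCODE vM39 (GRCm39). Alternatives were other scalings, DESeq2 1.42.0, no filter, all 18 libraries, a replicate block and leaving out libraries. One named feature is not reported here.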

Additional observations from a re-analysis of the deposited data

Results flagged for a closer look

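The contrast between neurons and microglia differed between knock-in and WT mice in 41 features by the test of the interaction itself (edgeR's quasi-likelihood test with Benjamini-Hochberg adjustment over 12 libraries). Among those named, the largest were 3 snoRNAs of the chromosome 7 region that the table lists without a symbol, ENSMUST00000239804 (interaction 6.65 on the log2 scale, adjusted p = 0.0299), ENSMUST00000240012 (4.94, adjusted p = 0.0125) and ENSMUST00000240128 (4.36, adjusted p = 0.0125). ENSMUST00000239804 is the Gm25615 shown above. It had 0 counts in every knock-in microglial library, so the size of its interaction depends on how 0 is treated. In the same region Snhg14, a transcript that holds the snoRNA Gm22285, had 4.29 (adjusted p = 0.0125) and Gm26097 had 3.35 (adjusted p = 0.0439). Near-identical copies in this region are not independent. Mir9-2 had 2.61 (adjusted p = 0.0421). In the opposite direction stood Mir486 (-4.92, adjusted p = 0.0381), miR-486a-5p (-4.08, adjusted p = 0.0460) and miR-451a (-3.59, adjusted p = 0.0416). The count of 41, against 717 features at an unadjusted p under 0.05, fell to 0 without WT microglia replicate 1, WT microglia replicate 3 or knock-in microglia replicate 2 (447, 479 and 563 at an unadjusted p under 0.05).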

How the results depend on the processing

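The number of features called between the fractions was 2584 (1305 higher, 1279 lower). It kept within 1.5 times of that value under every alternative except TMM factors from mature miRNAs alone, which gave 3940 (3638 higher, 302 lower), and 3905 in the isodecoder table in place of 2433. Library totals gave 1649 higher and 943 lower. Leaving out each library gave 2120 to 2675 features and 2007 to 2547 in the isodecoder table, and 18 to 20 classes without overlap. The interaction (41 features) gave 65 with DESeq2-type factors, 112 with factors from mature miRNAs, 139 with DESeq2, 100 without a filter and 38 with library totals, and 0 to 120 when each library was left out. At an unadjusted p under 0.05 it had 717 features.

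With the replicate number as a block, 2474 features were called (1232 higher, 1242 lower), 2327 in the isodecoder table and 113 in the interaction (87 and 26). Deviations of same-numbered neuron and microglial libraries from their group means had correlations of -0.06, -0.33 and 0.15. Deviations from means of only 3 libraries cannot decide whether the numbers pair samples. The study took the fractions in sequence from a single brain, but the labels do not say that equal numbers mark 1 brain. The main tests used no block. As a hint only, Xist had 5, 56 and 88 counts in neurons, 4, 44 and 61 in microglia and 5, 47 and 83 in astrocytes for replicates 1, 2 and 3 of the knock-in mice. Xist, which is expressed from the inactive X of females, was thus high in 2 of 3 knock-in replicates of every fraction. This differs from the sexes the study describes.

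For 114 named features, 1678 values under alternatives were computed. Of these 1565 kept direction and call, 33 gained and 35 lost the call, and 45 changed sign; the cause was not tested. On the mature miRNA scale the log2 difference became 1.24 for Gm43960, 1.27 for Scarna2, 1.29 for Gm23751, 1.31 for Gm43846, 1.204 for Gm22265, 1.30 for Gm22042, 1.77 for B930036N10Rik, 0.65 for BC018473, 1.65 and 1.18 for 2 transcripts of 9030612E09Rik, 1.22 for Snord43, 0.0073 for mt-Ts2, 2.19 for Rabggtb, 2.45 for CT010467.2, 0.058 for piR-68681, 0.44 for Yipf1, 1.92 for Gm25492, 1.91 for Gm25313, 1.38 for Rnu5g, 0.50 for tRNA-Glu-CTC-1, 1.56 for Mir486, 1.46 for miR-486a-5p and 1.84 for miR-451a. Without a filter, Rny3 had -0.0093, and Rpl7a, Rpl13 and Snord68 each -0.20. With library totals Rabggtb had 0.27 and CT010467.2 had 0.36. CT010467.2 also had 0.12 with DESeq2-type factors and with DESeq2, 0.020 with the block and 0.13 with features that share a small RNA summed. When each library was left out, Rabggtb ranged from -0.37 to 0.13 (above 0 without microglia replicate 1), CT010467.2 from -0.41 to 0.17 (above 0 without microglia replicate 2 or 3 or neuron replicate 1), Rpl7a from -0.048 to 0.16, Rpl13 and Snord68 from -0.012 upward (all 3 below 0 without microglia replicate 3), Mir486 from -1.39 to 0.27 and miR-451a from -0.96 to 0.36 (both above 0 without microglia replicate 2). Without replicate 1 of both fractions, which like the summing of shared small RNAs was chosen after seeing the data, Rabggtb had 0.21 and Tmem38b -0.015. Depth limited mRNA fragments and rare miRNAs, and a count of 0 allows up to 3 counts per library.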
